A study of Danio rerio with 2 samples.

Results

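The genes described here are 32 genes of the cell division cycle, made up of 10 replication genes, 17 mitotic genes and 5 chromatin and tubulin genes. They were chosen by symbol from the gene table that both libraries share, and the rule uses their symbols alone. The 32 symbols stand on 34 gene IDs among the 32057 genes listed, because rrm2 and ube2c each have a pair of IDs. Transcripts were counted in single cells from ventricles of adult zebrafish, taken from the injury and its border zone at 120 hours post-cryoinjury, a frozen wound from which this fish regrows heart muscle. One library came from wild-type fish of the AB strain and the other from fish of the same strain that were mutant in both cd74a (allele bns454) and cd74b (allele bns456), deletions made with CRISPR-Cas9. CD74, the invariant chain, accompanies MHC class II molecules to the place where they are loaded with antigen. Each library pooled the cells of 4 ventricles, from 2 females and 2 males, so each genotype has 1 library and no replicate. Genotype, pool and library preparation cannot be told apart, no test between genotypes was made, and all intervals below are 95% intervals that cover counting error only. Those of levels, ratios and folds treat each counted transcript as independent, so they are too narrow where many come from the same cells.

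A dividing cell first copies its DNA in S phase and then separates the copies in mitosis. The replication genes encode the sliding clamp of the DNA polymerases (pcna), the subunits of the helicase that opens the double helix (mcm2 to mcm7), and enzymes that make DNA building blocks, namely the subunits of ribonucleotide reductase (rrm1, rrm2) and thymidylate synthase (tyms). The mitotic genes encode the kinases, cyclins, motors and degradation factors that run the later phases, and their transcripts build up toward division and are lost after it. In the injured zebrafish heart, cardiomyocytes of the border zone, fibroblasts, vessel and endocardial cells and leukocytes are all known to divide.

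The 4607 wild-type barcodes held 7395919 unique molecular identifiers (UMIs, 1 per captured transcript), and the 15142 mutant barcodes held 22991961. Barcodes with more than 300 genes and at most 70% mitochondrial UMIs were kept as cells, 3589 (77.9%) and 7174 (47.4%). The median cell held 1107 and 1049 non-mitochondrial UMIs, with 14.99% and 22.3% of its UMIs mitochondrial, and ribosomal protein genes took 39.4% and 47.7% of the non-mitochondrial UMIs. The libraries shared 15 barcodes, 7 of them kept. In the mutant library cd74a stood at 86.9 counts per 1000000 non-mitochondrial UMIs (CPM) against 1170.3 in the wild-type library, and cd74b at 49.8 against 496. The 14 clusters, made without any cell cycle gene, gave 8 classes named from markers and 2 unnamed clusters.

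Over all kept cells the replication genes and the mitotic genes were both lower in the mutant library, and so was the typical gene. The replication genes summed to 345 CPM (329 to 361) in the wild-type and 248 CPM (238 to 258) in the mutant library, a log2 ratio (mutant over wild type) of -0.48 (-0.56 to -0.39). The mitotic genes summed to 249 CPM (236 to 263) and 200.5 CPM (192 to 209), a log2 ratio of -0.31 (-0.41 to -0.21). The chromatin and tubulin genes summed to 1181 CPM (1152 to 1210) and 958 CPM (939 to 977), a log2 ratio of -0.30 (-0.35 to -0.26). Over the 8415 genes that had 50 UMIs or more, the median ratio was itself -0.47 on the log2 scale. Relative to it the replication genes stood at -0.01, and the mitotic and the chromatin and tubulin genes changed direction, to 0.15 and 0.16. The interval of the replication genes held -0.47, and those of the other lists lay above it.

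Among the replication genes, pcna gave most of the UMIs. It gave 1115 of the 1871 wild-type UMIs (59.6%) and 1285 of the 2494 mutant UMIs (51.5%), and its level was 205 CPM (194 to 218) against 128 CPM (121 to 135), a log2 ratio of -0.69 (-0.80 to -0.57). Without pcna the list stood at -0.21 (-0.35 to -0.08). The 6 helicase genes summed to 72.0 CPM (65.1 to 79.5) and 61.9 CPM (57.1 to 67.0), a log2 ratio of -0.22 (-0.40 to -0.03). Their single log2 ratios ran from -0.71 for mcm7, with 23 and 26 UMIs, to -0.04 for mcm6, with 93 and 168 UMIs, and all 6 intervals held 0. mcm2 had 73 and 119 UMIs, mcm3 60 and 93, mcm4 72 and 122, and mcm5 70 and 95. The helicase genes were no higher in kept cells than in the barcodes that the filter removed, where they stood at 77.3 CPM (54.7 to 106) and 69.0 CPM (60.4 to 78.5), whereas pcna stood there at 79.3 CPM and 73.5 CPM, well below its level in kept cells.

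The genes for DNA building blocks did not share a direction. rrm1, the large subunit of ribonucleotide reductase, stood at 19.3 CPM from 105 UMIs and 14.5 CPM from 146 UMIs, a log2 ratio of -0.41 (-0.79 to -0.04). tyms stood at 11.2 CPM from 61 UMIs and 14.5 CPM from 146 UMIs, a log2 ratio of 0.37 (-0.07 to 0.82). The small subunit rrm2 has 2 IDs whose ratios pointed in opposite directions. The first ID (ENSDARG00000078069) stood at 35.4 CPM from 192 UMIs and 23.8 CPM from 239 UMIs, a log2 ratio of -0.57 (-0.85 to -0.29). The second ID (ENSDARG00000020711) stood at 1.29 CPM from 7 UMIs and 5.47 CPM from 55 UMIs, a log2 ratio of 2.08 (0.94 to 3.46). How the counting divided reads between these IDs is not given in the sources used here, so the split is uncertain.

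The mitotic genes spread from cdk1, the lowest, to ube2c, the highest. cdk1, the kinase that drives entry into mitosis, stood at 31.3 CPM from 170 UMIs and 15.1 CPM from 152 UMIs, a log2 ratio of -1.05 (-1.38 to -0.73). cenpe, the motor that carries chromosomes to the spindle equator, stood at 9.21 CPM from 50 UMIs and 4.47 CPM from 45 UMIs, a log2 ratio of -1.04 (-1.66 to -0.43). ube2c, the ubiquitin-conjugating enzyme with which the anaphase-promoting complex marks cyclins for destruction, stood at 40.3 CPM from 219 UMIs and 46.7 CPM from 470 UMIs, a log2 ratio of 0.21 (-0.02 to 0.45). The intervals of cdk1 and cenpe did not reach that of ube2c. These 3 genes were picked by their values as the ends of the list, so an even shift of the list was not tested.

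The other mitotic genes lay between them. The cyclins ccna2 (66 and 75 UMIs) and ccnb1 (52 and 64 UMIs), the partners of cdk1, had log2 ratios of -0.71 (-1.20 to -0.21) and -0.59 (-1.14 to -0.03). The mitotic kinase plk1 (80 and 94 UMIs) stood at -0.66 (-1.10 to -0.21), the kinetochore gene cenpf (32 and 33 UMIs) at -0.85 (-1.59 to -0.10), and top2a (144 and 196 UMIs), the topoisomerase that untangles sister chromatids, at -0.45 (-0.76 to -0.13). At the upper end cks1b, a small subunit of the cyclin-dependent kinases (118 and 248 UMIs), stood at 0.18 (-0.14 to 0.51), and birc5a, which encodes survivin (78 and 145 UMIs), at 0.00 (-0.40 to 0.42). The log2 ratios of 7 further genes were below 0 with intervals that held 0: the proliferation marker mki67 (106 and 161 UMIs), the kinases aurkb (59 and 94 UMIs) and aurka (17 and 22 UMIs), the anaphase activator cdc20 (42 and 57 UMIs), and the spindle genes tpx2 (53 and 72 UMIs), kif11 (30 and 39 UMIs) and nusap1 (36 and 48 UMIs), with values between -0.52 and -0.22. The second ube2c ID had 0 and 2 UMIs and was not tested.

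The chromatin and tubulin genes, which cells outside the cycle also make, gave most of the UMIs. The chromatin proteins hmgb2a and hmgb2b stood at 286 CPM against 242 CPM and at 228 CPM against 192 CPM, log2 ratios of -0.24 (-0.33 to -0.15) and -0.25 (-0.35 to -0.15). The histone variant gene h2az2b stood at 501 CPM and 387 CPM, a log2 ratio of -0.37 (-0.44 to -0.30), and the tubulin gene tubb2b at 124 CPM and 90.7 CPM, a log2 ratio of -0.45 (-0.60 to -0.31). stmn1a, which encodes the microtubule-destabilising protein stathmin, was the exception at 41.8 CPM and 46.2 CPM, a log2 ratio of 0.14 (-0.09 to 0.38).

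Of the 34 IDs, 33 had at least 20 UMIs over both libraries, and 3 of them differed at least 2-fold once 0.5 was added to each UMI sum. The second rrm2 ID was higher in the mutant library, where 2.70% of all 10884 genes with at least 20 UMIs were, and cdk1 and cenpe were lower, where 12.3% of all genes were. Relative to the median of all genes only rrm2 passed the limit, against 6.0% of all genes higher and 3.06% lower. With that addition 28 members stood below 0 and 5 above it, and 80.3% of all genes stood below 0. The median log2 ratio of the members was -0.45, with -0.26 for the replication genes, -0.48 for the mitotic genes and -0.25 for the chromatin and tubulin genes, beside -0.46 for all genes. The share of members below 0 and their median were thus near those of all genes.

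**Figure D1:**
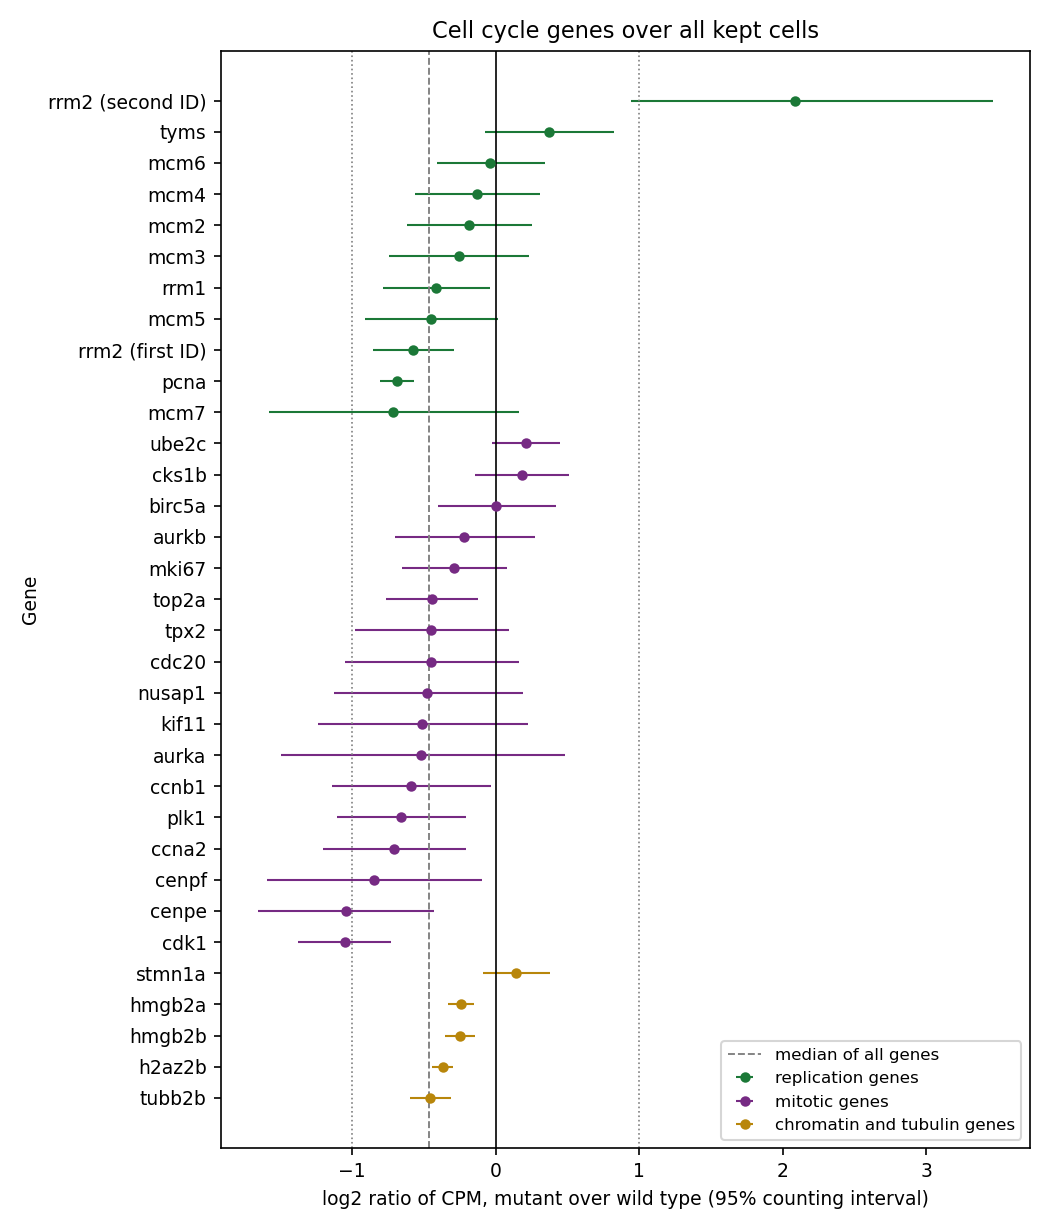
The log2 ratio between mutant and wild-type CPM over all kept cells is plotted for the 33 gene IDs with at least 20 UMIs, with 95% counting intervals, coloured by list. The second rrm2 ID lies at 2.08, cdk1 at -1.05 and cenpe at -1.04, past the dotted lines of a 2-fold ratio, and the dashed line marks the median of all genes at -0.47.

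The summed level of the replication genes differed several-fold between cell classes. In the wild-type library the replication genes were highest in mural-like cells, a class led by acta2, at 528 CPM (480.3 to 580.1). Macrophage-like cells followed at 407 CPM (371 to 447), fibroblast-like cells at 371 CPM (339 to 404), leukocyte-like cells at 303 CPM (212 to 420), cardiomyocyte-like cells at 280.4 CPM (228 to 341) and epithelial-like cells at 256 CPM (218 to 299), and from the macrophage-like class on each interval overlapped the next. Endocardial-like cells at 163 CPM (123 to 212) and endothelial-like cells at 151 CPM (120.2 to 186) were lowest, no higher than the removed barcodes at 193 CPM (156 to 236). In the mutant library macrophage-like cells at 342 CPM (316 to 369) and fibroblast-like cells at 323 CPM (302 to 344) were highest. Cardiomyocyte-like cells stood at 220.1 CPM (138 to 333), epithelial-like cells at 212 CPM (165 to 267), mural-like cells at 206 CPM (154 to 270.3), endothelial-like cells and leukocyte-like cells at 136 CPM each, and endocardial-like cells at 119 CPM (95.5 to 146), beside 194 CPM (179.8 to 210) in the removed barcodes.

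The mural-like class had the widest gap in replication genes. Its 386 wild-type and 125 mutant cells gave a log2 ratio of -1.36 (-1.80 to -0.94). pcna stood at 342 CPM from 285 UMIs and 115 CPM from 29 UMIs, a log2 ratio of -1.57 (-2.18 to -1.02), and rrm2 at 50.3 CPM from 42 UMIs and 7.93 CPM from 2 UMIs, a log2 ratio of -2.67 (-5.76 to -0.72). Both passed the 2-fold limit among the 15 members with at least 20 UMIs in the class, and 23.5% of all genes were lower by that limit and 2.13% higher. The mitotic genes of the class differed less, at 355 CPM (315 to 397) and 262 CPM (202 to 333), a log2 ratio of -0.44 (-0.85 to -0.05), close to the median of all genes in the class at -0.47. In the class 9 of 10 mural and 12 of 20 fibroblast markers were raised. At a finer clustering (resolution 2) the mural-like class held 62 wild-type and 89 mutant cells. There 329 and 92 cells, with 5 of 9 mural and 13 of 20 fibroblast markers raised, formed an unnamed cluster. No mural-like class formed at resolution 0.5, and the gap in replication genes was not tested under either clustering.

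For the mitotic genes the class with the highest value differed between the libraries, but in each its interval overlapped that of the next class. In the wild-type library mural-like cells stood at 355 CPM, leukocyte-like cells at 354 CPM (255 to 478), cardiomyocyte-like cells at 330.4 CPM (274 to 395), fibroblast-like cells at 269.5 CPM (243 to 298) and macrophage-like cells at 238 CPM (210.0 to 268), all above the removed barcodes at 130.2 CPM (100.2 to 166). In the mutant library fibroblast-like cells led at 321 CPM (300.5 to 342), ahead of mural-like cells at 262 CPM, macrophage-like cells at 208 CPM (188 to 229) and epithelial-like cells at 191 CPM (147 to 244). Epithelial-like cells stood at 193 CPM and 191 CPM, a log2 ratio of -0.02 (-0.48 to 0.43). The endocardial-like class stood at 98.9 CPM (68.5 to 138) and 59.4 CPM (43.3 to 79.5) and the endothelial-like class at 120.4 CPM (93.5 to 153) and 87.3 CPM (75.0 to 101), in each library below the level in the removed barcodes, 130.2 CPM and 173 CPM. The mutant values of the cardiomyocyte-like and leukocyte-like classes, given below, were also under 173 CPM. For mutant cardiomyocyte-like cells the interval held that level. In the wild-type library the endocardial-like and endothelial-like intervals both held the level of its removed barcodes.

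**Figure D2:**
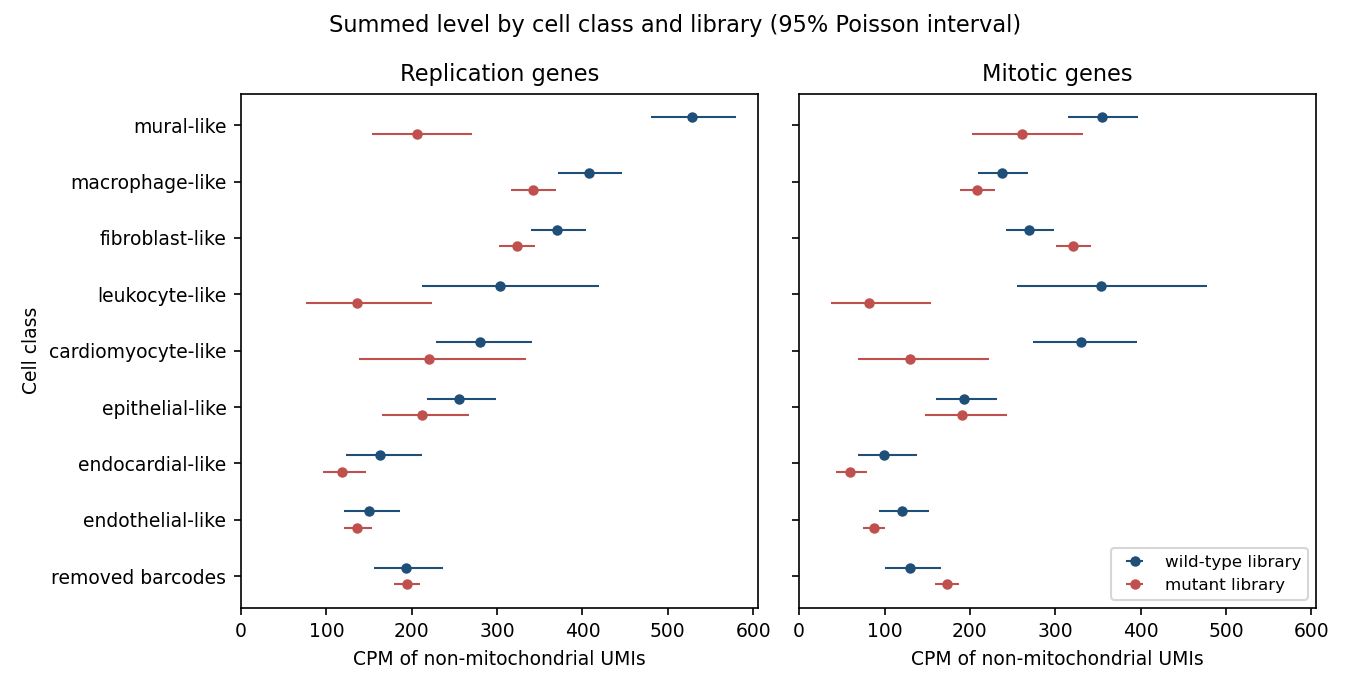
The summed level of the replication genes (left) and the mitotic genes (right) is plotted in CPM for 8 cell classes and the removed barcodes, with 95% Poisson intervals, for the wild-type (blue) and the mutant library (red). Mural-like cells show the widest gap in replication genes, 528 against 206 CPM. Fibroblast-like cells alone have the mutant library higher in mitotic genes with Poisson intervals that do not overlap, 321 against 269.5 CPM. These intervals treat each UMI as independent, but 82.0% and 76.3% of the mitotic UMIs of that class lay in cells with at least 2 mitotic genes. Counted by cells, the shares with 2 such genes were 7.71% (5.99 to 9.74) and 8.67% (7.40 to 10.1), with overlapping intervals.

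In cardiomyocyte-like cells more of the mitotic UMIs than in the whole library lay in cells with 1 mitotic gene. The 322 wild-type cells held 119 mitotic UMIs, and the 74 mutant cells 13, at 130.1 CPM (69.3 to 222), a log2 ratio of -1.34 (-2.30 to -0.52). In this class 14 of 14 cardiomyocyte and also 7 of 7 erythroid markers were raised. Only 43.7% of the wild-type UMIs of the class lay in cells with at least 2 different mitotic genes, compared with 75.7% over all wild-type cells. No single mitotic gene reached 20 UMIs in the class. Of the 6 members that did, pcna (30 and 3 UMIs) and h2az2b (136 and 13 UMIs) were past the 2-fold limit, both lower, with log2 ratios of -1.47 (-3.83 to 0.21) and -1.54 (-2.48 to -0.72), where 26.5% of all genes were lower and 4.13% higher. rrm2 (21 and 5 UMIs), hmgb2a (161 and 22 UMIs), hmgb2b (78 and 12 UMIs) and tubb2b (68 and 10 UMIs) stood between -1.02 and -0.22. The helicase genes stood at 111 CPM (79.3 to 151) and 120.1 CPM (62.0 to 210), with overlapping intervals.

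The mitotic value of the leukocyte-like class rested largely on 1 cell. Its mitotic genes stood at 354 CPM and 81.6 CPM (37.3 to 155), a log2 ratio of -2.12 (-3.34 to -1.06), but 30 of the 42 wild-type UMIs came from a single cell with 13 mitotic genes. pcna, with 25 and 5 UMIs, was the only 1 of 5 members past the 2-fold limit, at -2.22 (-3.96 to -0.81), where 15.3% of all genes were lower and 5.14% higher. The name of the class is uncertain. In its larger cluster (88 and 81 cells) 3 of 3 neutrophil, 5 of 5 leukocyte and 10 of 11 macrophage markers were raised.

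In macrophage-like cells the mitotic genes stood at 238 CPM and 208 CPM, a log2 ratio of -0.19 (-0.42 to 0.04), and the replication genes at -0.25 (-0.43 to -0.08). Here top2a (44 and 36 UMIs, 39.5 and 18.7 CPM) and cenpe (13 and 11 UMIs) were the 2 of 26 members past the 2-fold limit, at -1.08 (-1.76 to -0.41) and -1.03 (-2.33 to 0.24), where 19.0% of all genes were lower and 3.58% higher. stmn1a leaned the other way, at 33.2 CPM from 37 UMIs and 57.6 CPM from 111 UMIs, a log2 ratio of 0.79 (0.25 to 1.37). The members with the most UMIs were h2az2b (526 and 435 CPM), hmgb2a (282 and 293 CPM), hmgb2b (259 and 269 CPM), pcna (252 and 188 CPM) and tubb2b (121 and 89.7 CPM), with log2 ratios of 0.06 (-0.14 to 0.26) for hmgb2a and -0.43 (-0.65 to -0.20) for pcna.

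In the endothelial-like, endocardial-like and epithelial-like classes few members had enough UMIs. Of 13 members in endothelial-like cells cdk1 was lower past the 2-fold limit (10 and 17 UMIs, 17.7 and 8.29 CPM), at -1.09 (-2.30 to 0.19), where 28.5% of all genes were lower and 2.59% higher. Of 6 members in endocardial-like cells none passed it, where 18.6% of all genes were lower and 2.85% higher, and pcna came nearest, at 98.9 CPM from 34 UMIs and 50.1 CPM from 38 UMIs, a log2 ratio of -0.98 (-1.69 to -0.27). Of 7 members in epithelial-like cells ube2c was higher past the limit (13 and 18 UMIs, 20.8 and 53.7 CPM), at 1.37 (0.26 to 2.52), where 2.65% of all genes were higher and 19.6% lower. The chromatin genes h2az2b, hmgb2a and hmgb2b had the most UMIs among the members in these 3 classes, with pcna and tubb2b next.

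The fibroblast-like class is where pooling cells gave the other direction from its clusters. Over its 830 wild-type and 1765 mutant cells the mitotic genes stood at 269.5 CPM and 321 CPM, a log2 ratio of 0.25 (0.08 to 0.43). ube2c (69 and 262 UMIs, 49.9 and 91.4 CPM) was higher at 0.87 (0.49 to 1.28) and cks1b (35 and 119 UMIs, 25.3 and 41.5 CPM) at 0.71 (0.16 to 1.30). Without ube2c the list stood at 0.06 (-0.13 to 0.26). Of 31 members past the 2-fold limit were the second rrm2 ID, higher with 1 and 21 UMIs, and cenpe, lower with 16 and 16 UMIs, where 3.74% of all genes were higher and 12.5% lower.

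The fibroblast-like class holds 2 clusters that the libraries filled in opposite proportions. One (cluster 2), led by defbl1, apodb and mgp, held 182 wild-type and 1377 mutant cells, and ube2c and birc5a were among its leading genes although neither was used to make it. It held 861 of the 920 mutant mitotic UMIs of the class, and 7 of 20 fibroblast markers were raised at least 2-fold in it. At a finer clustering (resolution 2) the cells led by defbl1, apodb and ube2c formed an unnamed cluster of 87 and 407 cells with 0 of 20 fibroblast markers raised, and its overlap with cluster 2 was not counted. The other (cluster 10), led by tfa and ccl25b, held 648 and 388 cells. In the first the mitotic genes stood at 561 CPM (469.6 to 666) and 379 CPM (354 to 406), a log2 ratio of -0.56 (-0.83 to -0.29). In the second they stood at 209.8 CPM (184 to 238) and 98.7 CPM (75.1 to 127), a log2 ratio of -1.09 (-1.52 to -0.67). Both clusters were thus lower in the mutant library while their sum was higher, and the ratio combined within the clusters was -0.76. Neither these values nor those of single clusters below are set against the typical gene of each cluster.

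For the replication genes the second fibroblast-like cluster had the wider gap. The first stood at 463 CPM (381 to 559) and 378 CPM (353 to 404), a log2 ratio of -0.30 (-0.58 to 0.01). The second stood at 352 CPM (318 to 388) and 115 CPM (89.8 to 146), a log2 ratio of -1.61 (-1.997 to -1.24). pcna made up most of that gap, at 216 CPM (189.8 to 244) from 248 UMIs and 41.8 CPM (27.1 to 61.7) from 25 UMIs, a log2 ratio of -2.37 (-3.02 to -1.77). The helicase genes of the same cluster stood at 60.1 CPM (46.7 to 76.0) and 40.2 CPM (25.7 to 59.7), a log2 ratio of -0.58 (-1.32 to 0.11).

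The macrophage-like and endothelial-like classes also hold a pair of clusters each. Of the macrophage-like clusters the one with 717 and 177 cells (cluster 3) had a log2 ratio of -0.29 (-0.62 to 0.04) for replication and -0.33 (-0.77 to 0.09) for mitotic genes, and the one with 155 and 1212 cells (cluster 5) -0.65 (-0.98 to -0.30) and -0.20 (-0.68 to 0.31). In cluster 3, led by jac9, 12 of 12 macrophage, 7 of 8 leukocyte and 2 of 3 neutrophil markers were raised. At resolution 2 a cluster led by jac9 was named leukocyte-like (121 and 3 cells). Another was named neutrophil-like (141 and 160 cells), and the overlap of both with cluster 3 was not counted. Of the endothelial-like clusters the one led by bmp6 and edn2, with 273 and 742 cells (cluster 1), stood near 0 for both lists, at 0.05 (-0.38 to 0.50) and -0.07 (-0.59 to 0.48). Its name is uncertain, since 10 of 18 endothelial and 4 of 7 endocardial markers were raised, with median log2 folds of 1.14 and 1.49. At resolution 2 the clusters with bmp6 among their leading genes were named endothelial-like (179 and 23 cells) and endocardial-like (101 and 736 cells). The other endothelial-like cluster, with rbp2a and plvapb and with 96 and 414 cells (cluster 12), stood at -0.52 (-1.15 to 0.15) and -1.18 (-1.86 to -0.47). Combined within clusters the log2 ratio was -0.64 for the replication genes, -0.59 for the mitotic genes and -0.46 for the chromatin and tubulin genes, each further below 0 than in the pooled cells. The same ratio was not computed for all genes, so whether the typical gene stood as far below 0 within clusters was not tested.

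**Figure D3:**
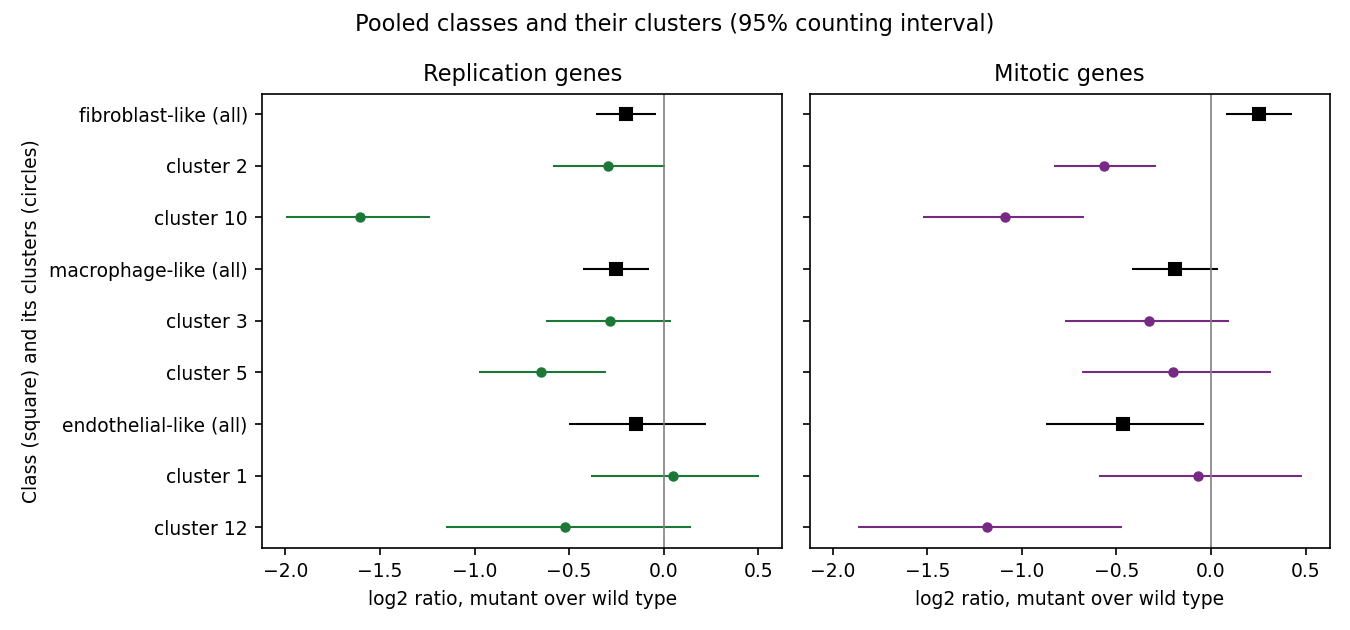
Log2 ratios, mutant over wild type, are plotted for 3 classes (squares) and the pair of clusters in each (circles), with 95% counting intervals, for replication genes (left) and mitotic genes (right). The fibroblast-like square lies at 0.25 for mitotic genes while its clusters lie at -0.56 and -1.09.

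The shares of cells with a mitotic UMI lay close together in the libraries. With each cell thinned to 500 non-mitochondrial UMIs, which left out 68 and 85 shallower cells, a mitotic UMI was found in 7.67% (6.81 to 8.60; 270 of 3521) in the wild-type and in 7.90% (7.28 to 8.55; 560 of 7089) in the mutant library. Unthinned the shares were 14.6% and 14.6%. A replication UMI was seen in 10.96% (9.95 to 12.04) and 9.96% (9.27 to 10.7) of the thinned cells. In removed barcodes, at a median of 608 and 620 UMIs among those deep enough, against 1119 and 1059 in cells, the thinned shares were 4.48% and 5.51% for mitotic and 5.07% and 6.30% for replication genes, so part of the shares in cells lies at the level of barcodes not taken as cells.

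By class, the thinned share with a mitotic UMI was 7.98% (6.23 to 10.0) and 11.03% (9.60 to 12.6) in fibroblast-like cells, 6.38% and 6.36% in macrophage-like cells, 10.1% and 8.87% in mural-like cells, and 14.3% (10.5 to 18.8) and 10.0% (4.12 to 19.5) in cardiomyocyte-like cells. With 2 mitotic genes required, 1.02% (0.21 to 2.95) of the wild-type cardiomyocyte-like cells remained, beside 2.55% (1.61 to 3.84) of macrophage-like, 2.34% (1.07 to 4.39) of mural-like and 1.45% (0.75 to 2.52) of fibroblast-like cells of that library, all with overlapping intervals. Of 70 mutant cardiomyocyte-like cells none had 2 mitotic genes, which allows a share of up to 4.29% by a limit of 3 counts and 5.13% by the exact interval, and without thinning 1 of 74 had them. Over all cells, 1.65% and 1.27% had 2 mitotic genes after thinning.

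Without thinning, at least 2 of the mitotic genes were found in 5.74% (5.001 to 6.55) of the wild-type library, or 206 cells, and in 4.22% (3.77 to 4.71) of the mutant library, or 303 cells. These cells held 75.7% and 61.2% of all mitotic UMIs. They were chosen by their mitotic genes, so a large share is built in. The share that evenly spread UMIs would give was not computed, and the difference between the libraries was not tested. Cells with 5 or more mitotic genes numbered 48 and 33, and the richest single cell had 17 of the genes in the wild-type and 12 in the mutant library. ube2c was the gene most often seen in the mutant cells with 2 mitotic genes, in 51.8% of them, and cdk1 in those of the wild-type library, in 44.7%. cdk1 was seen in 22.8% of the mutant cells of this kind and ube2c in 42.7% of the wild-type ones.

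The replication genes separated when cells were ordered by how many mitotic genes they showed. pcna stood at 120.1 CPM (110.0 to 131) in wild-type cells with no mitotic gene, 421 CPM (366 to 481) with 1, 720 CPM (636 to 812) with 2 to 4, and 526 CPM (434 to 633) with 5 or more. In the mutant library pcna stood at 91.8, 244, 383 and 221 CPM in the same steps. The levels of rrm1, rrm2 and tyms together had the same shape, at 33.9, 135, 294 and 186 CPM in the wild-type and 40.4, 99.8, 208 and 125 CPM in the mutant library. Both were highest in cells with 2 to 4 mitotic genes, and for rrm1, rrm2 and tyms the intervals of the last 2 steps overlapped in each library.

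The helicase genes had another order. In the wild-type library mcm2 to mcm7 together stood at 60.0 CPM (53.0 to 67.8) in cells with no mitotic gene, 139 CPM (108 to 175) with 1, 124 CPM (90.8 to 165) with 2 to 4 and 65.2 CPM (35.6 to 109) with 5 or more. In the mutant library they stood at 58.9 CPM (53.8 to 64.4), 95.2 CPM (77.6 to 116), 54.9 CPM (38.0 to 76.7) and 14.7 CPM (1.78 to 53.2), the last from 2 UMIs. Their highest value was in cells with 1 mitotic gene in both libraries, with an interval apart from that of cells with 2 to 4 in the mutant library only. In the richest cells the interval held the level of cells with no mitotic gene in the wild-type library and lay below it in the mutant library.

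Over all cells with at least 2 mitotic genes, the fold over cells with none was 5.40 (4.72 to 6.18) and 3.85 (3.34 to 4.43) for pcna and 7.50 (5.93 to 9.48) and 4.78 (3.91 to 5.82) for rrm1, rrm2 and tyms, the wild-type library first. It was 1.71 (1.27 to 2.27) and 0.81 (0.56 to 1.14) for the helicase genes, so their intervals lay below those of the other replication genes in both libraries. Singly, rrm1 stood at 7.22 and 6.25, tyms at 8.58 and 4.85 and the first rrm2 ID at 7.11 and 4.04. Of the helicase genes mcm4 stood at 0.94 and 0.92, mcm5 at 1.42 and 0.88, mcm6 at 1.85 and 1.00, and mcm3 at 1.15 and 0.30, while mcm2 went from 3.17 (1.72 to 5.63) in the wild-type library to 0.22 (0.03 to 0.83), on 2 UMIs, in the mutant library. mcm7 had 4 and 6 UMIs in these cells, a fold of 2.69 (0.62 to 9.08) and 4.36 (1.39 to 11.9). Cells with 2 mitotic genes were deeper, with a median of 2070 and 1850 non-mitochondrial UMIs against 1086 and 1031. Compared at a depth of 500 UMIs per cell, the folds were 2.82 (1.48 to 4.92) and 2.68 (1.37 to 4.74) for pcna and 1.33 (0.27 to 3.99) and 0.97 (0.20 to 2.86) for the helicase genes, so at equal depth their intervals overlapped.

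Of the chromatin and tubulin genes, the hmgb2 genes and h2az2b had their highest level in the cells with 5 or more mitotic genes in both libraries. hmgb2a and hmgb2b together stood at 353, 751, 1378 and 1686 CPM over the 4 steps in the wild-type and at 334, 599.8, 1144 and 1872 CPM in the mutant library. h2az2b stood at 392, 685, 1092 and 1243 CPM and at 321, 516, 875 and 1187 CPM. Its intervals of the last 2 steps overlapped in the wild-type library. stmn1a was highest with 2 to 4 mitotic genes, with intervals that overlapped the last step, at 15.7, 72.4, 235 and 163 CPM and at 26.1, 88.6, 211 and 177 CPM, and its fold in cells with at least 2 mitotic genes was the largest of the 5 genes, 13.3 (9.78 to 18.1) and 7.86 (6.35 to 9.71). tubb2b had the smallest mutant fold of the 5, 3.51 (2.92 to 4.19) and 2.56 (2.12 to 3.07). In the last 2 steps it stood at 310 and 317 CPM in the wild-type and at 195 and 169 CPM in the mutant library, with overlapping intervals. In cells with no mitotic gene h2az2b and the hmgb2 genes were still the members with the most UMIs.

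**Figure D4:**
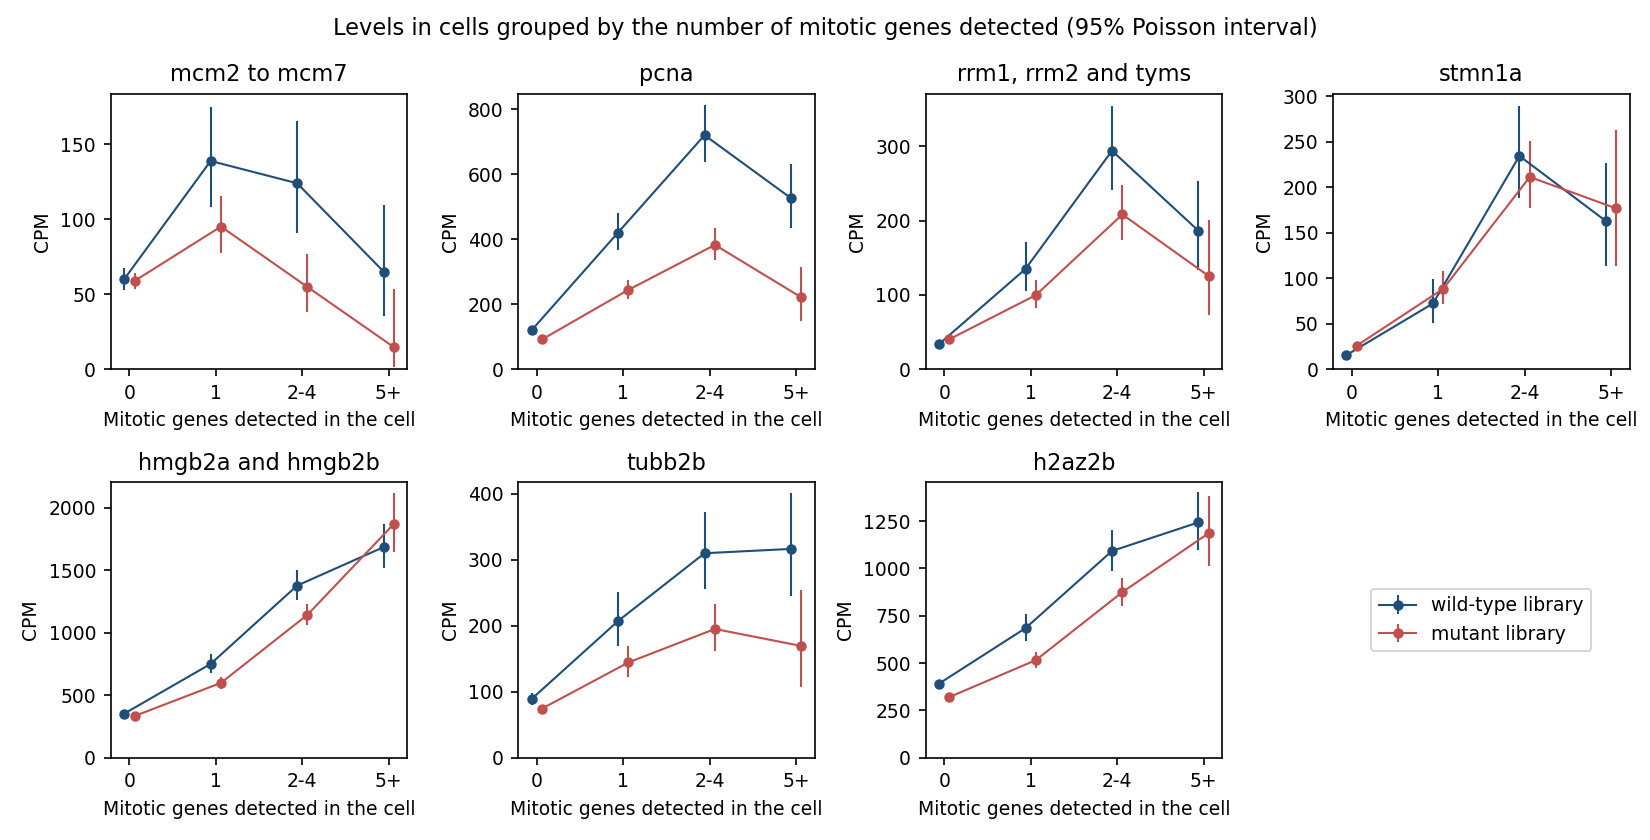
Levels in CPM are plotted against the number of different mitotic genes detected in a cell (0, 1, 2 to 4, 5 or more) for 7 genes or gene groups, with 95% Poisson intervals, in the wild-type (blue) and the mutant library (red). The helicase genes mcm2 to mcm7 peak in cells with 1 mitotic gene, pcna and the building-block enzymes in cells with 2 to 4, and the hmgb2 genes are highest in cells with 5 or more.

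Helicase and clamp transcripts did share cells. In the 294 wild-type and 525 mutant cells with a helicase UMI pcna was 5.41-fold (4.80 to 6.10) and 3.44-fold (3.03 to 3.89) the level in other cells, while the mitotic genes were 1.28-fold (1.104 to 1.49) and 0.93-fold (0.79 to 1.08). In the 481 and 810 cells with a pcna UMI the helicase genes were 4.54-fold (3.70 to 5.58) and 2.71-fold (2.29 to 3.21), and the mitotic genes were 3.38-fold (3.04 to 3.77) and 2.54-fold (2.31 to 2.79). Cells with a helicase UMI thus had a higher pcna level in both libraries. Their mitotic genes were above the level of other cells in the wild-type library, with an interval that left out 1. In the mutant library that interval held 1. Cells with a pcna UMI had more of both groups, and none of these folds was computed at equal depth. Median depth was 1706 and 1266 UMIs in cells with a helicase UMI and 1079 and 1038 in the others.

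At equal depth replication UMIs were more common in cells with a mitotic UMI in both libraries. With 500 UMIs per cell, 23.3% (18.4 to 28.8) of wild-type cells with a mitotic UMI also had a replication UMI, against 9.94% (8.93 to 11.02) of those without, and in the mutant library 16.6% (13.6 to 19.95) against 9.39% (8.69 to 10.1). Leaving out pcna the wild-type shares were 12.96% (9.20 to 17.6) against 5.44% (4.69 to 6.28). The mutant shares were then 8.04% (5.92 to 10.6) against 5.58% (5.03 to 6.16), with overlapping intervals. With pcna included, the shares in macrophage-like cells were 34.5% (22.2 to 48.6) against 10.3% and 31.8% (22.3 to 42.6) against 11.9%. In some other classes the share was not higher, on few cells. It was 14.3% (5.43 to 28.5) against 14.7% in wild-type cardiomyocyte-like and 4.76% (0.12 to 23.8) against 6.45% in wild-type endothelial-like cells. It was 0 of 23 (up to 14.8%) against 4.98% in mutant endocardial-like and 0 of 2 against 6.52% in mutant leukocyte-like cells. In wild-type endocardial-like cells it was higher, 62.5% (5 of 8) against 4.55%. At 1000 UMIs per cell the wild-type cardiomyocyte-like (25.7% against 18.4%), wild-type endothelial-like (30.8% against 10.4%) and mutant endocardial-like cells (20% against 6.42%) were higher, with overlapping intervals. Mitotic UMIs were 41.9% (40.2 to 43.7) of mitotic plus replication UMIs in the wild-type and 44.7% (43.3 to 46.2) in the mutant library, a share that no scaling between libraries can move. Without pcna the order turned, to 64.1% (62.0 to 66.2) and 62.5% (60.8 to 64.2), with intervals that overlap.

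Cell cycle genes outside the 32 stood near the background of all genes, of which 80.3% were below 0, 12.3% lower by 2-fold and 2.70% higher. Of 36 other replication genes with at least 20 UMIs none was higher and 3 were lower by 2-fold, namely gins4, a subunit of the active helicase, and cdc6, which loads it, and the maintenance methylation factor uhrf1, at -1.17, -1.10 and -1.31. The 3 with the most UMIs were dut (57.1 and 66.4 CPM), which keeps uracil out of DNA, and the single-strand binding subunits rpa3 (41.1 and 60.2 CPM) and rpa2 (39.8 and 32.9 CPM). Of 45 other mitosis genes none was higher and 1 lower, cdca8 of the chromosomal passenger complex at -1.03 (-1.71 to -0.37). The 3 with the most UMIs were tubb4b (665 and 352 CPM), tuba8l4 (413 and 306 CPM) and h2az2a (64.9 and 59.3 CPM). These are tubulin and histone variant genes, a kind that cells outside the cycle also make. Below 0 were 27 of the 36 and 35 of the 45, and the median log2 ratios were -0.24 and -0.33, beside -0.46 for all genes.

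Of 12 genes in a list of G1 cyclins and kinases and of E2F, DP and Myc factors none was higher and 3 were lower. Of all genes 12.3% were lower and 2.70% higher. ccnd1, the D cyclin of G1, stood at 18.2 CPM and 8.94 CPM, e2f8 at 10.7 CPM and 5.07 CPM, and mycb at 254 CPM and 122 CPM, log2 ratios of -1.03, -1.08 and -1.06, while ccnd2a stood at 7.37 CPM and 9.14 CPM. Of 21 genes listed as inhibitors or brakes of the cycle none was higher, against the same 2.70% of all genes. Lower were cdkn1ba, which encodes a p27 protein, and the antiproliferative tob1b, at -1.25 and -1.15, against the same 12.3% of all genes. The inhibitors with the most UMIs were btg2 (588 and 394 CPM), ccng1 (380.3 and 248 CPM) and gadd45ba (272 and 203 CPM). In cells with at least 2 mitotic genes this list summed to 0.77-fold (0.72 to 0.82) the level of cells with none in the wild-type library. In the mutant library it was 0.67-fold (0.62 to 0.72). The other replication genes went the opposite way, at 3.93-fold and 2.97-fold. The abundant btg2, ccng1 and gadd45ba weigh most in the sum, while cdkn1a had 19 and 48 UMIs over all cells. These folds were not computed at equal depth, and cells with 2 mitotic genes were deeper, so lower brakes in them were not tested.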

How the data were processed

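Live cells were captured with the Chromium 3' v3.1 chemistry, and the authors made the deposited counts (UMIs per gene and barcode, unnormalized) with STARsolo on the zebrafish build danRer11 after removal of dead cells. The versions of their tools are not given in the sources used here. Whether the 2 IDs of rrm2 and ube2c share reads is likewise not given, and no sequence is printed because no sequence of that build was used here.

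UMIs were summed over barcodes with more than 300 genes and at most 70% mitochondrial UMIs and divided by the non-mitochondrial total. Exact Poisson and exact conditional intervals (95%) cover counting error only, and shares have exact Clopper-Pearson intervals. A gene counted as past 2-fold from 20 UMIs on, with 0.5 added to each sum. Cells were clustered with Scanpy 1.11.5 (Leiden, resolution 1) on 2000 variable genes without mitochondrial, ribosomal protein, cell cycle or cd74 genes. Classes were named from fixed markers with limits set after the clusters were seen. Doublets were left in. Ratios combined within clusters are Mantel-Haenszel rate ratios. The computations used Python 3.11.15, NumPy 2.4.6, pandas 2.3.3 and SciPy 1.17.1, and the interval and call steps were tested on simulated data.

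The members, lists and tests were chosen with earlier results of these data known. Every member is given over all cells. Per class, the members with at least 20 UMIs were eligible, and the 5 with the most UMIs and those past 2-fold were to be named. In the mural-like, leukocyte-like and fibroblast-like classes those past 2-fold were named, but not all of the members with the most UMIs. ube2c and cks1b in fibroblast-like cells, stmn1a in macrophage-like cells, and the steps of mitotic genes other than 2 or more were chosen after their values were seen. Of other cell cycle lists the 3 genes with the most UMIs and those past 2-fold were named. The alternatives changed the cell filter, the scaling, the clustering, the class names, the depth and the members.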

Additional observations from a re-analysis of the deposited data

Results flagged for a closer look

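The mitotic genes had log2 ratios of mutant over wild type on opposite sides of 0 in different classes, each with an interval that left out 0. The fibroblast-like class stood at 0.25, and the mural-like class at -0.44, the endothelial-like class at -0.46, the endocardial-like class at -0.74, the cardiomyocyte-like class at -1.34 and the leukocyte-like class at -2.12. The value 0 is not the ratio of the typical gene in these classes. With the median of gene ratios as the scale, the fibroblast-like class stood at 0.60 (0.42 to 0.78). The endothelial-like class then stood at 0.10 (-0.31 to 0.52), on the same side of 0. The endocardial-like class stood at -0.43 (-1.10 to 0.26) and the cardiomyocyte-like class at -1.04 (-1.99 to -0.21). The mural-like value was close to the median of its class, as given above. The difference between classes was not tested, since each genotype has 1 library. Within the fibroblast-like class both clusters stood below 0, at -0.56 and -1.09, and in the leukocyte-like class 1 wild-type cell held 71.4% of the mitotic UMIs.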

How the results depend on the processing

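No paired analysis was possible because each genotype has 1 library. Of 169 alternative values for 28 results, 109 lay within the interval of the reported value, or near it for the count of members, and 60 did not. These intervals are wide in small classes. On the other side of 0 lay 16, and 3 of them were within the interval of the reported value. Of the 16, 9 belong to results whose interval left out 0, and the cause was not tested. The rest, from results whose interval held 0, include replication genes in endothelial-like cells without ribosomal protein genes in the total (0.12) or with marker classes (0.011). They also include mitotic genes in macrophage-like cells with more than 500 genes (0.013). With the median of gene ratios as the scale, the log2 ratio was -0.0092 for replication genes, 0.15 for mitotic genes and 0.16 for chromatin and tubulin genes over all cells, with 1 member past 2-fold. By class it was then 0.41 (endothelial-like), 0.18 (macrophage-like) and 0.15 (fibroblast-like) for replication genes and 0.10 (endothelial-like), 0.24 (macrophage-like) and 0.60 (fibroblast-like) for mitotic genes. Without ribosomal protein genes in the total it was -0.26, -0.10 and -0.090 for the 3 lists and -0.069 for replication genes in macrophage-like cells, with 1 member past 2-fold. As a mean over cells the replication genes stood at -0.26 and the chromatin and tubulin genes at -0.25. Combined within clusters the lists stood at -0.64, -0.59 and -0.46, the replication genes at -0.44 in the macrophage-like class and -0.91 in the fibroblast-like class, and the mitotic genes at -0.76 in fibroblast-like cells.

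Without the member with the most UMIs the 3 lists stood at -0.21, -0.44 and -0.25, the replication genes at 0.10 in endocardial-like, -0.011 in the macrophage-like class and -0.0043 in the fibroblast-like class, and the mitotic genes at 0.063 in fibroblast-like cells. With more than 500 genes per cell the mitotic genes stood at -0.20 and the chromatin and tubulin genes at -0.25, and the endocardial-like class at -1.22 for replication and -1.68 for mitotic genes. Without the 2% of cells with the most UMIs, replication genes in fibroblast-like cells stood at 0.0059. With classes from marker UMIs the endocardial-like class stood at 0.27 (replication) and 0.39 (mitotic) and the fibroblast-like class at -0.53 and 0.027. At Leiden resolution 0.5 the fibroblast-like class stood at -0.47 and 0.041, and at resolution 2 its mitotic genes at -0.049. The mitotic genes of cardiomyocyte-like cells stood at -2.59 at resolution 0.5 and at -2.66 at resolution 2. The class then held 66 wild-type and 50 mutant cells and 66 and 52 cells, against 322 and 74 at resolution 1. At resolution 2 an unnamed cluster of 278 and 37 cells had 14 of 14 cardiomyocyte and 7 of 7 erythroid markers raised. No endocardial-like class formed at resolution 0.5, so it has no value there.

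Thinned to 1000 UMIs, 12.1% of wild-type and 11.6% of mutant cells had a mitotic UMI, and unthinned 14.6% of each. At 1000 UMIs the share with a replication UMI was 40.4% and 28.5% in cells with a mitotic UMI and 13.4% and 15.02% in those without. Without the leading member of each list the mitotic share of cycle UMIs was 60.0% and 56.1%. The fold of pcna in cells with 2 or more mitotic genes was 4.67 and 2.85 within clusters and 2.82 and 2.68 at 500 UMIs, and that of rrm1, rrm2 and tyms 5.10 and 3.53 at 500 UMIs. The depth limits single members within classes, where most have under 20 UMIs.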

Other observations

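The 2 unnamed clusters belong to no class. The larger, with mmp9, ckmt2a and ckmt2b among its leading genes, held 117 wild-type and 1770 mutant cells. In it 14 of 14 cardiomyocyte and 7 of 7 erythroid markers were raised, and its median mitochondrial share was 36.6%, against 12.5% to 21.0% in the other clusters. What these markers and this share add to the values was not tested. The mitotic genes of this cluster stood at 413 CPM (286 to 577) from 34 UMIs and 204 CPM (181 to 228) from 306 UMIs, a log2 ratio of -1.02 (-1.53 to -0.46), and its replication genes at 304 CPM (197 to 448) and 237 CPM (213 to 263). Cells with at least 2 mitotic genes held 29.4% and 25.8% of its mitotic UMIs. The smaller held 111 mutant cells and no wild-type cell, with replication genes at 149.8 CPM from 24 UMIs and mitotic genes at 87.4 CPM from 14 UMIs. With both unnamed clusters left out, the replication genes over the remaining cells stood at a log2 ratio of -0.46. Then 4 members were past 2-fold, namely rrm2, cdk1, cenpe and cenpf.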
